A study of Mus musculus with 8 samples.

Results

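The mitochondrial ribosomal protein genes were taken as the rows of a gene count table whose symbol starts with Mrpl or Mrps followed by a digit, with at least 10 counts in at least 4 libraries. Of 17823 rows, 77 met this rule, 48 of them Mrpl (named for the large subunit) and 29 Mrps (named for the small subunit). All 77 were among the 12610 genes that passed the filter on low counts. At the edge of the rule, Mrps36 was inside with 18, 21, 13 and 20 counts in tdT-positive libraries and 24, 22, 18 and 19 in tdT-negative ones, and Mrpl23 was outside with 1, 5, 0 and 5 counts against 2, 2, 7 and 0.

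The libraries hold polyadenylated RNA of mouse macrophages from C57BL/6 bone marrow, grown for 7 days with 20 ng of recombinant M-CSF, the growth factor of the macrophage lineage. All of them received 1 µg/ml of LPS from Escherichia coli, which activates macrophages through a Toll-like receptor, so no group without LPS enters the comparison. The tdT-positive group expressed an Il19-tdT reporter, tdT being the usual short form of the red fluorescent protein tdTomato placed under the gene of the cytokine Il19, and the tdT-negative group did not. Each group has 4 libraries, called biological replicates and numbered 1 to 4 in both, and the sources used here do not say how positive and negative cells were separated.

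The mitochondrial ribosome is a separate ribosome inside the mitochondrial matrix that translates the few messages of the mitochondrial genome, all of which encode core subunits of the respiratory chain and of ATP synthase. Its proteins are encoded in the nucleus, made in the cytosol and imported. Many descend from bacterial ribosomal proteins and others have no bacterial counterpart, while the rRNA of the particle is transcribed in the organelle itself. In macrophages, inflammatory activation is known to shift energy metabolism between glycolysis and oxidative phosphorylation, which depends on this ribosome.

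The libraries held 49850537 to 58516454 counts, so that 3 counts correspond to 0.0490 to 0.0696 CPM (counts scaled to a common library size, here by TMM, a trimmed mean of gene ratios). Il19 itself averaged 185 ± 36.6 CPM in tdT-positive libraries and 12.0 ± 3.45 CPM in tdT-negative ones (SD, n = 4 each). All 10 listed macrophage markers were detected, with summed levels of 14700 to 19300 CPM in tdT-positive libraries and 12400 to 22200 CPM in tdT-negative ones. Markers of other cells lay lower. The 15 stromal markers summed to 86.4 to 222 CPM in tdT-positive against 362 to 3210 CPM in tdT-negative libraries, the 11 neutrophil markers to 28.9 to 58.2 against 33.0 to 291 CPM, the 8 dendritic markers to 18.8 to 24.4 against 36.6 to 70.5 CPM, and the 10 osteoclast markers to 161 to 367 against 140 to 2990 CPM. The highest stromal and osteoclast sums were both those of tdT-negative replicate 4. The 9 monocyte markers summed to 816 to 1740 against 667 to 1940 CPM, but these sums hid differences in single genes. Of the 9 monocyte markers, 6 had a log2 fold change (tdT positive over tdT negative) below 0 and 3 above, with a median of -0.65. Plac8, Chil3 and Ly6c2 were lower in tdT-positive libraries without overlap. They averaged 0.494 ± 0.156, 0.454 ± 0.331 and 0.666 ± 0.311 CPM there, against 6.87 ± 1.56, 54.7 ± 40.9 and 16.4 ± 12.1 CPM in tdT-negative libraries. The neutrophil sums hid such differences too. Of 6 neutrophil markers tested, 5 had a log2 fold change below 0 and 1 above (Mmp8), with a median of -6.17. Mmp8 averaged 38.2 ± 12.5 CPM in tdT-positive libraries and 19.6 ± 9.81 CPM in tdT-negative ones. S100a9 averaged 0.713 ± 0.677 and 102 ± 71 CPM in the same order. Of 9 osteoclast markers tested, 8 lay below 0 and 1 above, with a median of -2.88. The 7 lymphoid markers in the table summed to 0.490 to 0.786 against 0.439 to 1.14 CPM, and the 7 erythroid and megakaryocyte ones to 1.82 to 6.88 against 1.6 to 7.13 CPM. None of these markers was at 0 in every library. In tdT-positive replicate 3, 12.3% of counts fell on Rn45s, an rRNA precursor, against 0.302 to 0.734% in the other 7 libraries. Without that library the median log2 fold change of the 77 genes, given below for all libraries, was -0.23 and 0 of them passed the test without the block. The part of the other cells in the results was not tested, and in such bulk RNA fewer cells of a type and less RNA per cell cannot be told apart.

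Mitochondrial ribosomal protein transcripts were slightly less abundant in tdT-positive than in tdT-negative macrophages, and nearly all of them leaned the same way. Together the 77 genes gave 1620, 1560, 1720 and 1710 CPM in tdT-positive replicates 1 to 4, against 1800, 1810, 2240 and 1790 CPM in tdT-negative replicates 1 to 4. The groups did not overlap, and tdT-negative replicate 3 stood above the other 3 libraries of its group. The means were 1650 ± 75.1 and 1910 ± 222 CPM, a ratio of 0.864. The log2 fold change of tdT positive over tdT negative lay below 0 for 75 of the 77 genes, against 50.1% of all genes tested, with a median of -0.22 (quartiles -0.27 and -0.14, range -0.66 to 0.06) beside a median of 0.00 over all genes tested.

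Without the replicate number in the model, none of the 77 genes passed an adjusted p under 0.05 in the quasi-likelihood test of edgeR, which called 0.0238% of all genes tested (0.0159% as lower and 0.00793% as higher). The smallest adjusted p among them was 0.0695, for Mrpl12. At an unadjusted p under 0.05, 24 of them were lower and 0 higher, where 8.81% and 7.51% of all genes were. The Wald test of DESeq2 called 7 lower and 0 higher, beside 7.3% of all genes (4.71% as lower and 2.59% as higher), and limma voom called 0. Leaving out tdT-negative replicate 1 gave 2 calls among the 77 genes and 456 among all genes, and leaving out tdT-negative replicate 3 moved the median of the 77 genes to -0.13. Deviations were shared within replicate numbers, and when edgeR took the number as a block 14 of the 77 genes passed as lower and 0 as higher. The same fit called 15.8% of all genes tested, 7.81% as lower and 8.03% as higher. With library totals in place of TMM, the blocked fit called 996 of all genes lower and 422 higher, against 985 lower and 1013 higher with TMM, and 11 of the 77 genes lower and 0 higher.

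The CPM values of the groups did not overlap for 19 of the 77 genes, all lower in tdT-positive libraries, where 5.92% of all genes tested were lower without overlap and 5.46% higher. Within numbers, 46 genes were lower in the tdT-positive library in all 4 numbers, 29 in 3, and the other 2 in fewer than 2, against 19.6% of all genes that were lower in all 4. Without numbers 1, 2, 3 and 4 in turn, 47, 47, 49 and 70 genes were lower in all remaining numbers (22.7%, 22.5%, 24.4% and 29.4% of all genes), and 28, 21, 29 and 35 were lower without overlap (9.44%, 7.28%, 10.6% and 11.5% of all genes). The median log2 difference was -0.14 in number 1, -0.21 in number 2, -0.35 in number 3 and -0.06 in number 4, where 74, 75, 73 and 51 of the 77 genes were lower. Over all 12610 genes tested the medians were -0.017, 0.001, -0.005 and 0.059 in numbers 1 to 4, where 6715, 6278, 6374 and 5426 were lower. Before any allowance for these all-gene medians, the median of the 77 genes was most negative in number 3 and least negative in number 4. All genes leaned higher in number 4. In tdT-negative replicate 3, 60 of the 77 genes had their highest value of the 8 libraries.

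**Figure D1:**
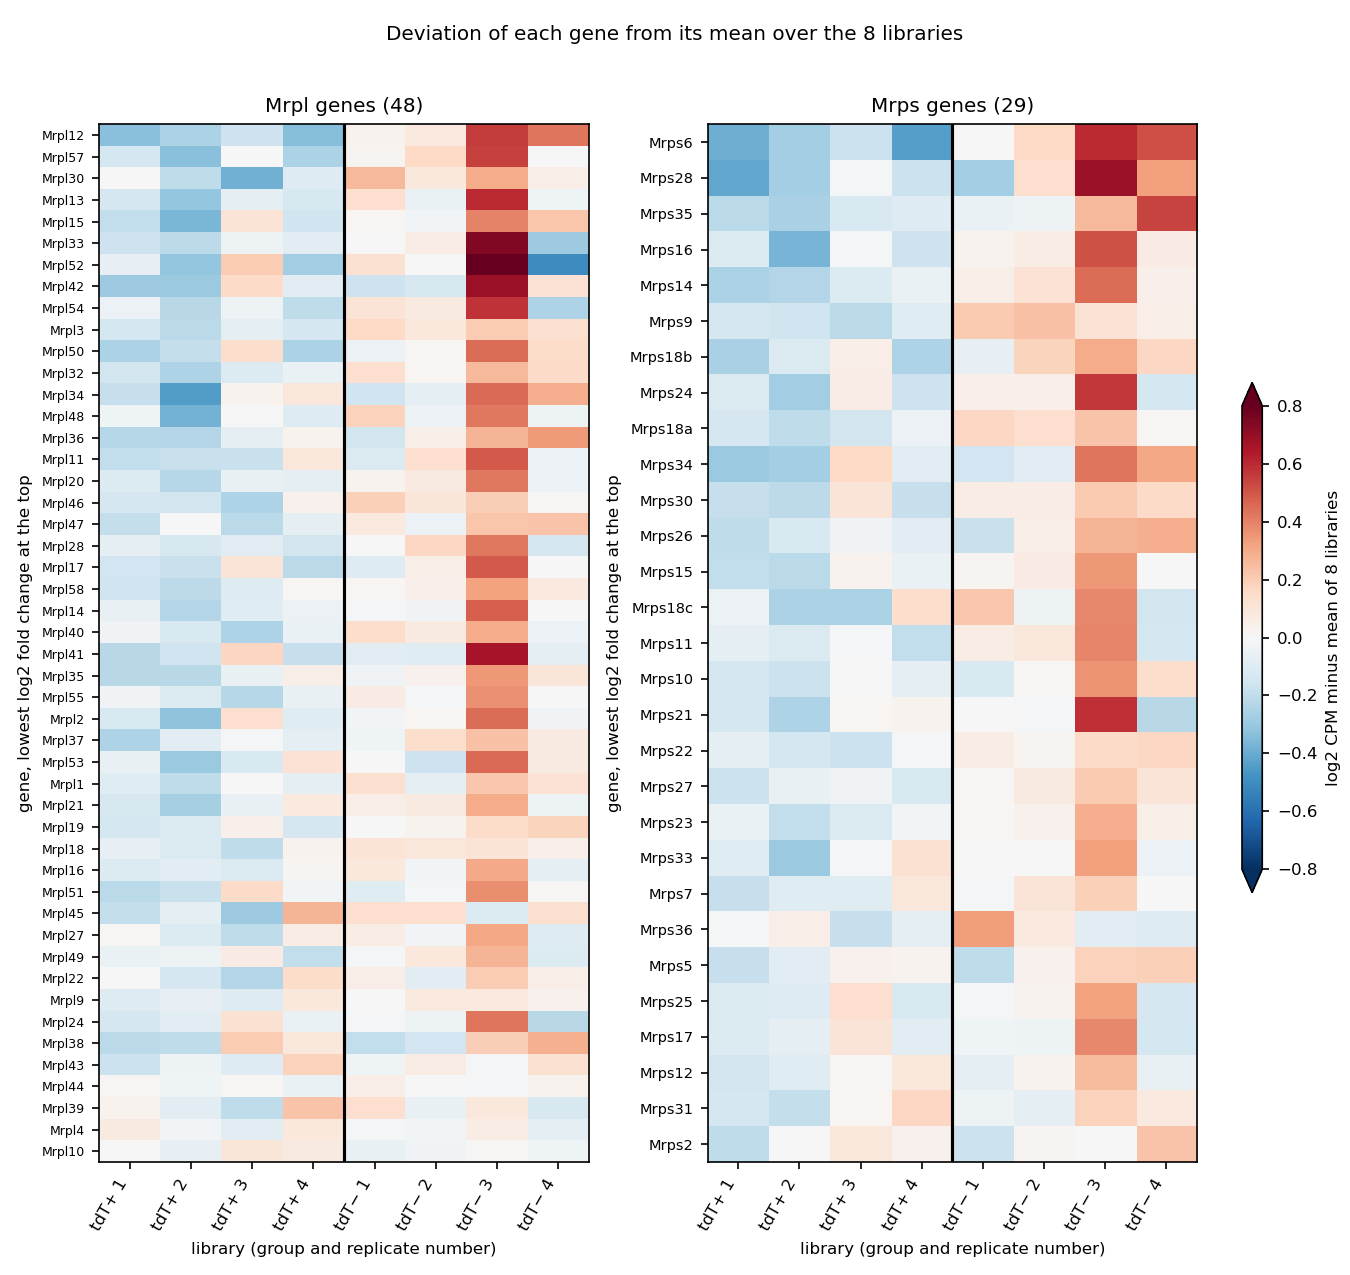
Each row is a gene and each column a library, coloured by its log2 CPM minus the mean of that gene over the 8 libraries, with Mrpl genes in the left panel, Mrps genes in the right, tdT-positive libraries left of the black line and tdT-negative ones right of it. Blue prevails left of the line, and the column of tdT-negative replicate 3 is the reddest, with 72 of 77 genes above their mean.

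The 14 genes that passed with the block were, by adjusted p, Mrpl12, Mrps6, Mrpl3, Mrpl15, Mrpl32, Mrpl57, Mrps28, Mrps9, Mrpl50, Mrps16, Mrps18b, Mrpl30, Mrps14 and Mrps18a. Each was lower in all 4 numbers, and in 10 of them the groups did not overlap. Their log2 fold changes in the blocked fit lay between -0.27 and -0.64. The calls depended on which numbers were present. Without number 1 the blocked fit kept 3 of the 14 (Mrpl12, Mrps6 and Mrps28), without number 2 or number 3 it called 0 of the 77 genes, and without number 4 it called 30, among them 12 of the 14. Over all genes tested, the calls without numbers 1, 2, 3 and 4 were 1023, 347, 355 and 2535. The median over the 77 genes was -0.23, -0.22, -0.14 and -0.23 without numbers 1, 2, 3 and 4. Number 4 holds the library with the highest stromal and osteoclast sums. The stromal markers tested had negative median log2 differences in every number (-1.72, -1.88, -3.32 and -4.33 in numbers 1 to 4).

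To show the sequence in front of genes at both ends of this range, promoters were taken from RefSeq on GRCm38.p6, from 250 bases before to 30 bases after the annotated start, on the strand of the gene. They were searched on both strands for 4 short motifs of factors known to act on nuclear genes of mitochondria or on housekeeping genes: CCGGAAG (ETS factors such as GABP), GCATGCG (NRF1), AAGATGG (YY1) and GGGCGG (SP1). Of the 77 genes, 68 had a promoter entry. The ETS letters occurred in 23 of these (33.8%), against 17.9% of the 9855 other genes tested and 8.70% of all 27025 promoters in the table. The NRF1 letters occurred in 8 (11.8%, against 6.36% and 3.49%), the YY1 letters in 10 (14.7%, against 6.34% and 5.74%) and the SP1 letters in 33 (48.5%, against 62.8% and 34.9%). Genes with and without the ETS letters had median log2 fold changes of -0.20 and -0.22, and those with and without the NRF1 letters -0.17 and -0.22. For the YY1 letters these medians were -0.219 with and -0.215 without, and for the SP1 letters -0.218 and -0.202. The 5 promoters printed here are those of Mrpl12, which was lower with the smallest p (chr11:120484387-120484666, plus strand), of Mrps6, which had the most negative fold change (chr16:92058086-92058365, plus strand), of Mrpl3, which was lower by a like amount in every number (chr9:105053018-105053297, plus strand), of Mrpl32, which was lower and holds 3 of the motifs (chr13:14613008-14613287, minus strand), and of Mrpl10, which had the highest fold change (chr11:97041332-97041611, plus strand). Capitals mark matches to any of the 4 motifs.
Mrpl12: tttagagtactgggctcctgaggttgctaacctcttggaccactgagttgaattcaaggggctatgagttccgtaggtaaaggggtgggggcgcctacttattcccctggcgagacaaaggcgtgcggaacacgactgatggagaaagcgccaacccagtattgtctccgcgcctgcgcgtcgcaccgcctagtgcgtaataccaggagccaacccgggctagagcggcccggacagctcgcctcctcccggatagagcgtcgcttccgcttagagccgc
Mrps6: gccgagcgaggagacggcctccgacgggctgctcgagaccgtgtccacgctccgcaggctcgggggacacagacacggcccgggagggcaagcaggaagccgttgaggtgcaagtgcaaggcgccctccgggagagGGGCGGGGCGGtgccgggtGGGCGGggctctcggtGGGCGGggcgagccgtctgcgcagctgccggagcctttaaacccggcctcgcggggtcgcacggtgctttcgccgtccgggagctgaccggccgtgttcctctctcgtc
Mrpl3: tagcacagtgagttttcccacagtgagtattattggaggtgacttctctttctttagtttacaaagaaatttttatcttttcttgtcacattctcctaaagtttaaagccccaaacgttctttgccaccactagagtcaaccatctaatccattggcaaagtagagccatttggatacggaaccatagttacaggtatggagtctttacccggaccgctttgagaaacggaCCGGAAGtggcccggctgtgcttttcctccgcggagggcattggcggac
Mrpl32: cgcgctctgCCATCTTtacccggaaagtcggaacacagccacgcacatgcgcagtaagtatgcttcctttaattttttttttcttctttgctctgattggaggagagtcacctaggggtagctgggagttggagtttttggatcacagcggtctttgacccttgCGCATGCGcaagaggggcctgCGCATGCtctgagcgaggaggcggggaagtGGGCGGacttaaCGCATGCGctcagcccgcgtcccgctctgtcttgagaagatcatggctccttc
Mrpl10: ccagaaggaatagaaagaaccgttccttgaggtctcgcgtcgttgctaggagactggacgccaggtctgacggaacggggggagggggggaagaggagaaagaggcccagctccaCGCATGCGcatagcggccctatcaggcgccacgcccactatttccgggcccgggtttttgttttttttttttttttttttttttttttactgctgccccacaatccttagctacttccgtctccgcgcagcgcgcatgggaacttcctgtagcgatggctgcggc
Mrpl12 held no match, Mrps6 held 4 SP1 matches of which the first and second overlap, and Mrpl3 held 1 ETS match. Mrpl32 held YY1, NRF1 and SP1 matches and Mrpl10 an NRF1 match, where an NRF1 palindrome counts on both strands. A match is a description of letters and not of a bound site, and no match says only that these letters are missing from this window.

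Among the large-subunit proteins, those of the stalk showed both ends of the range. The stalk is the flexible arm of a ribosome that recruits translation factors, and Mrpl12 forms its mobile part. Mrpl12 (Entrez 56282, chromosome 11, 120484637 to 120488754, plus strand) had 23.6, 24.8, 26.5 and 23.4 CPM in tdT-positive replicates 1 to 4, against 30.3, 31.3, 43.6 and 39.9 CPM in tdT-negative replicates 1 to 4. Every tdT-positive library lay below every tdT-negative one, and the difference was larger in numbers 3 and 4 than in 1 and 2. It averaged 24.6 ± 1.44 and 36.3 ± 6.52 CPM. Mrpl12 fell by 0.55 on the log2 scale in the blocked fit (SE 0.09, adjusted p = 0.0135), and the change without the block was -0.56 (SE 0.13, adjusted p = 0.0695).

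Mrpl10 makes the base to which the mobile part attaches, and it was the gene with the highest fold change of all 77. Mrpl10 (Entrez 107732, chromosome 11, 97041582 to 97049213, plus strand) had 37.9, 36.3, 40.5 and 39.9 CPM in tdT-positive replicates 1 to 4, against 36.4, 37.1, 38.2 and 37.1 CPM in tdT-negative ones. The groups overlapped, with tdT-positive replicate 2 the lowest of the 8. The log2 fold change was 0.05 with the block (SE 0.06, edgeR adjusted p = 0.566) and turned to -0.02 with library totals in place of TMM. Mrpl11, which sits beside that base, averaged 17.2 ± 1.70 CPM in tdT-positive libraries and 20.4 ± 4.02 CPM in tdT-negative ones, with an adjusted p of 0.25 in the blocked fit. Mrpl1, of the mobile arm on the other side of the particle, averaged 17.7 ± 1.05 and 20.3 ± 1.71 CPM in the same order, with an adjusted p of 0.0888 in the blocked fit.

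Mrpl3 and Mrpl4 belong to the proteins that reach into the core of the large subunit, Mrpl3 beside the peptidyl transferase centre and Mrpl4 along the exit tunnel. Mrpl3 (Entrez 94062, chromosome 9, 105053268 to 105077466, plus strand) had 27.5, 26.1, 28.8 and 27.7 CPM in tdT-positive replicates 1 to 4, against 34.0, 32.2, 34.9 and 33.1 CPM in tdT-negative ones. The groups did not overlap, and the difference was nearly the same in each number, between -0.30 and -0.26 on the log2 scale. Mrpl3 fell by 0.28 on that scale in the blocked fit (SE 0.06, adjusted p = 0.0202; 0.0848 without the block). Mrpl4 (Entrez 66163, chromosome 9, 21001252 to 21008839, plus strand) had 30.9, 29.1, 27.7 and 31.3 CPM in tdT-positive replicates 1 to 4, against 29.1, 29.0, 30.7 and 28.0 CPM in tdT-negative ones. Its tdT-negative values lay within the range of the tdT-positive ones, the log2 fold change was 0.03 with the block (SE 0.07, edgeR adjusted p = 0.825), and its sign turned with library totals, with upper-quartile factors and without number 4.

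Mrpl15 and Mrpl32 are further large-subunit proteins with bacterial relatives, and Mrpl32 is known as a substrate that a protease of the inner membrane must mature before the subunit is complete. Mrpl15 (Entrez 27395, chromosome 1, 4773198 to 4785750, minus strand) had 24.3, 21.6, 30.1 and 24.9 CPM in tdT-positive replicates 1 to 4, against 28.2, 27.4, 36.8 and 32.6 CPM in tdT-negative ones. The groups overlapped through tdT-positive replicate 3, which lay above tdT-negative replicates 1 and 2, while within every number the tdT-positive library was the lower one. Mrpl15 fell by 0.31 on the log2 scale in the blocked fit (SE 0.06, adjusted p = 0.0204), and its adjusted p without the block was 0.291. Mrpl32 (Entrez 75398, chromosome 13, 14610301 to 14613037, minus strand) had 19.3, 18, 19.9 and 20.6 CPM in tdT-positive replicates 1 to 4, against 23.5, 21.6, 25.6 and 23.8 CPM in tdT-negative ones. Its groups did not overlap. Mrpl32 fell by 0.28 on the log2 scale in the blocked fit (SE 0.06, adjusted p = 0.0302).

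Of the other large-subunit genes, Mrpl57 and Mrpl50, whose proteins have no bacterial counterpart, and Mrpl30, which has one, also passed with the block. Mrpl57 averaged 20.1 ± 2.05 CPM in tdT-positive libraries and 26.1 ± 4.86 CPM in tdT-negative ones and fell by 0.36 on the log2 scale in the blocked fit. Mrpl30 averaged 45.4 ± 5.09 and 57.6 ± 4.95 CPM and fell by 0.35, and Mrpl50 averaged 17.9 ± 2.51 and 21.8 ± 3.51 CPM and fell by 0.28 in the same fit. The adjusted p-values of the blocked fit were 0.0306 for Mrpl57, 0.0441 for Mrpl30 and 0.0371 for Mrpl50.

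**Figure D2:**
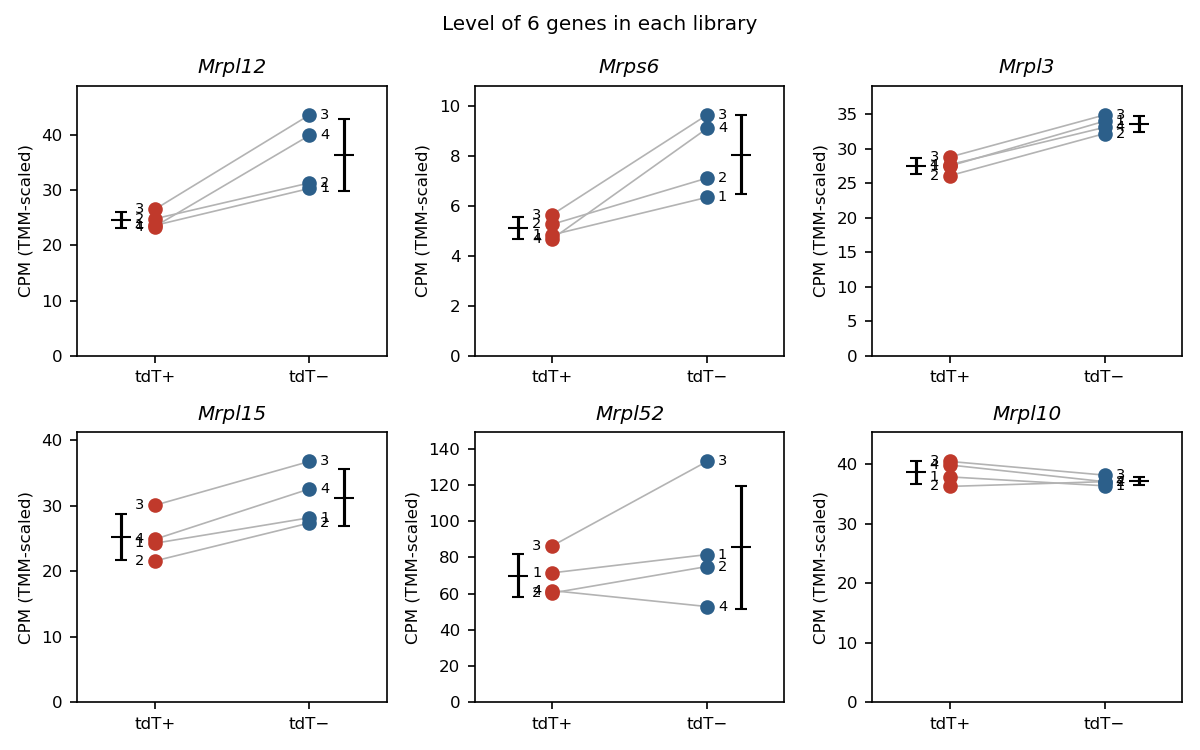
CPM (TMM-scaled) of 6 genes in each library, with tdT-positive libraries on the left of each panel and tdT-negative ones on the right, numbers beside the points giving the replicate, grey lines joining libraries of the same number, and bars giving mean and SD (n = 4). The groups lie apart for Mrpl12, Mrps6 and Mrpl3, each line of Mrpl15 is lower at its tdT-positive end, and the lines of Mrpl52 and Mrpl10 do not share a direction.

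The most negative fold change of all was that of a small-subunit gene. Mrps6, a protein of the platform of the small subunit (Entrez 121022, chromosome 16, 92058336 to 92112227, plus strand), had 4.85, 5.27, 5.66 and 4.69 CPM in tdT-positive replicates 1 to 4, against 6.35, 7.12, 9.65 and 9.11 CPM in tdT-negative ones. The groups did not overlap, and as for Mrpl12 the difference was larger in numbers 3 and 4. Mrps6 fell by 0.64 on the log2 scale in the blocked fit (SE 0.12, adjusted p = 0.0182), against an adjusted p of 0.0827 without the block. Some of its exon bases are shared with the transporter gene Slc5a3 on the same strand, so reads could be split between them. Slc5a3 averaged 2.66 ± 0.52 CPM in tdT-positive libraries and 3.92 ± 2.28 CPM in tdT-negative ones, with overlapping groups and an adjusted p of 0.293 in the blocked fit.

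The other small-subunit genes that passed with the block had smaller fold changes. Mrps9, which reaches towards the decoding site in its bacterial form, had 13.7, 13.4, 12.9 and 14.0 CPM in tdT-positive replicates 1 to 4, against 17.3, 17.7, 16.2 and 15.6 CPM in tdT-negative ones, with no overlap. Mrps9 fell by 0.31 on the log2 scale in the blocked fit (SE 0.08, adjusted p = 0.0356). Mrps28 averaged 8.12 ± 0.951 CPM in tdT-positive libraries and 11.3 ± 3.11 CPM in tdT-negative ones, with overlapping groups, and fell by 0.44 on the log2 scale in the blocked fit (adjusted p = 0.0335). Neither Mrps9 nor Mrps28 passed without the block. Mrps16 averaged 13.9 ± 1.44 and 17.5 ± 3.01 CPM in the same order, Mrps14 23.2 ± 1.55 and 29.1 ± 4.17 CPM, and Mrps18b 11.3 ± 1.17 and 13.8 ± 1.41 CPM. Their adjusted p-values in the blocked fit were 0.0431 for Mrps16, 0.0444 for Mrps14 and 0.0433 for Mrps18b. Mrps35, whose protein has no bacterial counterpart, averaged 8.28 ± 0.432 CPM in tdT-positive libraries and 10.7 ± 2.17 CPM in tdT-negative ones without overlap, and did not pass in the blocked fit (adjusted p = 0.0576).

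Not all Mrps symbols name small-subunit proteins. Mrps18a and Mrps30 encode proteins of the large subunit, and Mrps36 encodes a subunit of the 2-oxoglutarate dehydrogenase complex of the citric acid cycle. Mrps18a averaged 33.8 ± 1.52 CPM in tdT-positive libraries and 40.7 ± 2.56 CPM in tdT-negative ones, without overlap, and fell by 0.27 on the log2 scale in the blocked fit (adjusted p = 0.0459). Mrps30 averaged 20.7 ± 2.24 and 24.4 ± 1.25 CPM in the same order (adjusted p = 0.0559 in the blocked fit). Mrps36 averaged 0.334 ± 0.0257 CPM in tdT-positive libraries and 0.365 ± 0.0586 CPM in tdT-negative ones, and a difference of this size was not detectable at its 13 to 24 counts.

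Large and small subunit genes had like shifts, without a test of the difference. The median log2 fold change was -0.23 over the 48 Mrpl genes and -0.21 over the 29 Mrps genes, and 7 of each passed as lower with the block, where 7.81% of all genes tested did. Without tdT-negative replicate 3 these medians were -0.12 and -0.14. Placed by the subunit that holds the protein, the 50 large-subunit genes had a median of -0.23 and the 26 small-subunit genes one of -0.21, with 8 and 6 passing. Genes listed with a bacterial homologue and genes listed as specific to mitochondria had like medians. Their calls with the block stand beside the same 7.81% of all genes. The 28 large-subunit genes listed with a homologue had a median of -0.23 with 5 passing, and the 22 listed as specific also had a median of -0.23 with 3 passing. In the small subunit the 16 listed with a homologue had a median of -0.21 with 5 passing, and the 10 listed as specific a median of -0.20 with 1 passing, a share near that of all genes. Mrps18a and Mrps18b, which passed, were listed as specific, although the like-named Mrps18c was listed with a homologue. The split is thus one of the list used and not of descent.

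Per length, the mean level of the Mrpl genes was 24.1, 22.5, 25.2 and 24.6 RPKM (CPM per kilobase of the length given in the table) in tdT-positive replicates 1 to 4, against 26.9, 26.3, 35.2 and 24.8 RPKM in tdT-negative ones. That of the Mrps genes was 16, 15.5, 17.2 and 17.3 RPKM in tdT-positive replicates 1 to 4, against 18, 18.3, 22.8 and 18.2 RPKM in tdT-negative ones. The groups overlapped for the Mrpl genes, through tdT-positive replicate 3 and tdT-negative replicate 4, and did not for the Mrps genes. The log2 ratio of the Mrpl to the Mrps mean was 0.59, 0.54, 0.55 and 0.51 in tdT-positive libraries, against 0.58, 0.52, 0.63 and 0.45 in tdT-negative ones. Its averages of 0.55 ± 0.04 and 0.55 ± 0.07 (SD, n = 4 each) differed by 0.003, far less than the spread between libraries of either group. With the median RPKM of each subunit in place of the mean, the difference was 0.08.

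**Figure D3:**
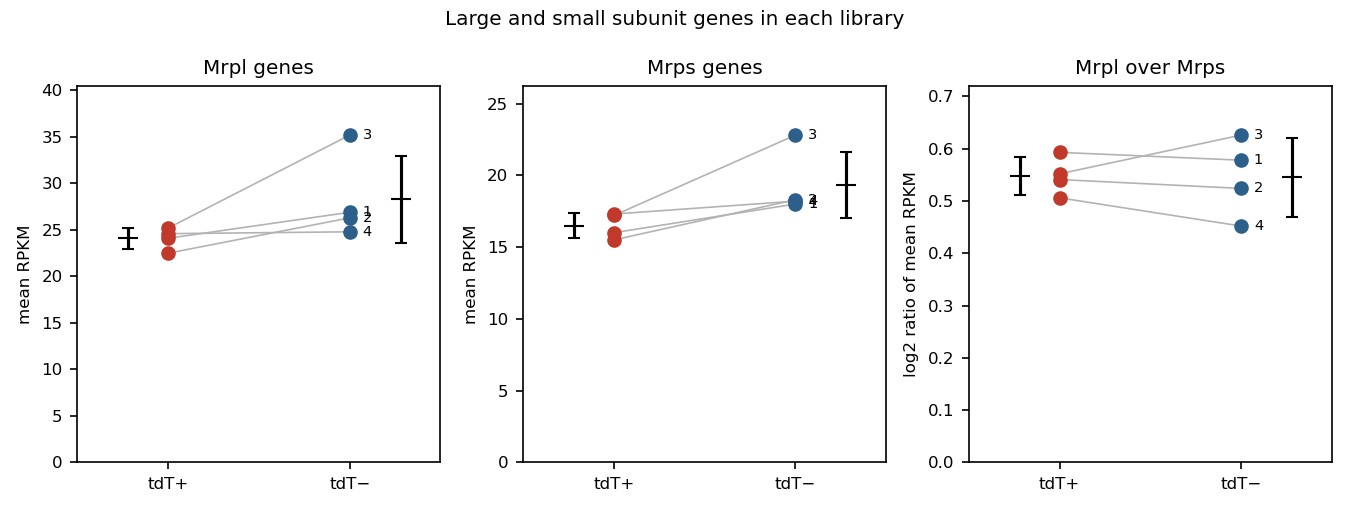
Mean RPKM of the 48 Mrpl genes, of the 29 Mrps genes, and the log2 ratio of these means, in each library, with tdT-positive libraries left and tdT-negative ones right in each panel, lines joining the same replicate number, and bars giving mean and SD (n = 4). Both subunits are highest in tdT-negative replicate 3, and the 4 tdT-positive ratios lie within the range of the tdT-negative ones.

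Among themselves the genes spanned a wide range of levels per length. Over the 8 libraries the mean ran up to 189 RPKM for Mrpl52, with a median of 16.8 RPKM. The highest Mrpl genes after Mrpl52 were Mrpl30 at 74.5 RPKM and Mrpl20 at 74.2 RPKM, and the highest Mrps genes were Mrps18c at 62.0, Mrps21 at 49.1 and Mrps18a at 43.1 RPKM. The lowest were Mrpl1 at 4.53 and Mrpl19 at 4.70 RPKM in the large subunit, and Mrps33 at 2.44 RPKM in the small. Mrps36, which encodes no ribosomal protein, lay below them at 0.488 RPKM. The length in the table enters each of these values, and the sources used here do not say which transcripts it counts.

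Mrpl52 was the most abundant gene and also among the most variable. It had 71.5, 60.4, 86.4 and 61.7 CPM in tdT-positive replicates 1 to 4, against 81.6, 75, 133 and 52.9 CPM in tdT-negative ones. Both the highest and the lowest of the 8 libraries were tdT-negative, and the log2 difference was -0.62 in number 3 but 0.22 in number 4. The fold change of -0.29 without the block (SE 0.26, edgeR adjusted p = 0.646) became 0.00 without tdT-negative replicate 3. Mrpl20 averaged 45.1 ± 2.31 CPM in tdT-positive libraries and 53.5 ± 8.16 CPM in tdT-negative ones, without overlap, and did not pass in the blocked fit (adjusted p = 0.097).

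**Figure D4:**
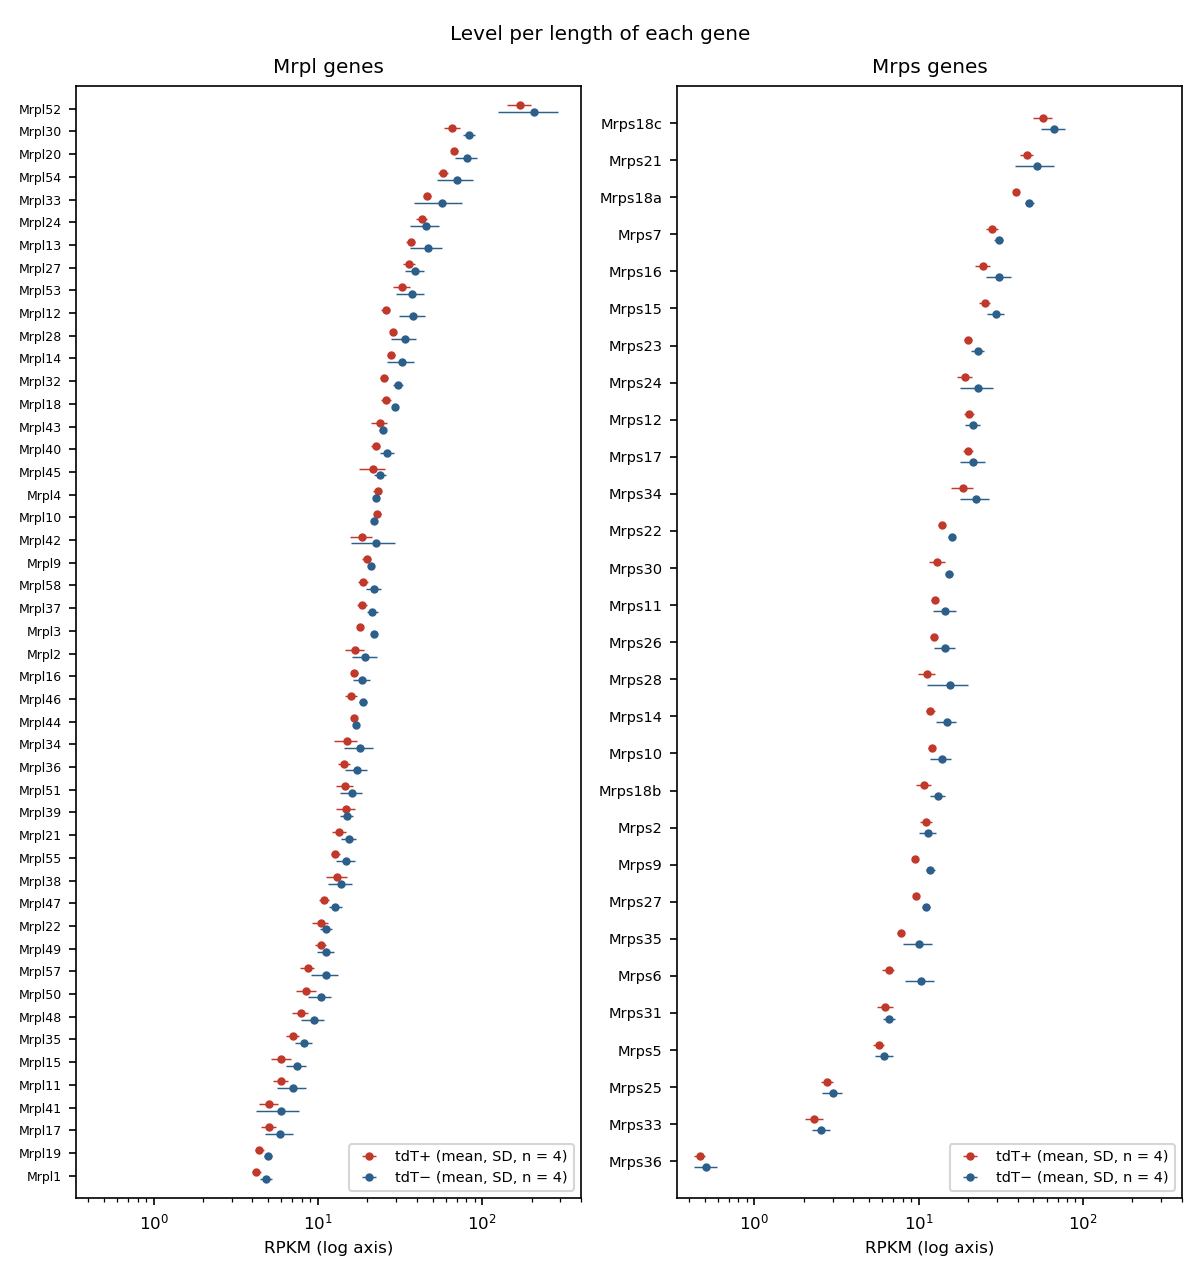
Mean RPKM (log axis) of each gene in tdT-positive (red, upper point of each pair) and tdT-negative libraries (blue, lower point), with bars of 1 SD (n = 4), Mrpl genes in the left panel and Mrps genes in the right. The tdT-positive point lies left of the tdT-negative one for nearly all genes, by less than the distance between most genes of unlike level.

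Mitochondrial ribosomal protein genes are short, and short genes as a whole had a negative median fold change. The median length of the 77 genes was 1050 bases, from 407 for Mrps21 to 6712 for Mrpl17, against 2870 bases over all genes tested. Over the 77 genes the log2 fold change and the log2 length had a Spearman correlation of 0.30 (Pearson 0.22, n = 77 genes measured in the same 8 libraries), beside 0.21 over all 12610 genes tested (Pearson -0.01). The correlation was 0.30 among Mrpl and 0.35 among Mrps genes. It differed between numbers, with 0.08, 0.21, 0.55 and -0.17 over the 77 genes in numbers 1, 2, 3 and 4, beside 0.11, 0.33, 0.33 and -0.04 over all genes. It was 0.05 without tdT-negative replicate 3 and -0.01 in the blocked fit without number 3. Over all genes tested, the slope of the log2 CPM deviation on log2 length was between -0.04 and 0.05 in tdT-positive libraries. In tdT-negative replicates 1 to 4 it was 0.00, 0.01, -0.10 and 0.09. By slope, short genes were thus high in tdT-negative replicate 3 and low in replicate 4. The medians did not show the latter. In number 4 the median log2 difference of genes outside the 77 was 0.058, 0.074 and 0.059 in the short, middle and long ranges given below.

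The 77 genes were therefore set beside other genes in the same ranges of length. The 26 shortest, of 407 to 938 bases, had a median log2 fold change of -0.26, against -0.18 for the 678 other genes in that range. The 25 of 949 to 1419 bases had a median of -0.21, against -0.10 for 1151 others. The 26 longest, of 1424 to 6712 bases, had a median of -0.19, against 0.01 for 9410 others. The gap to the other genes of a range was thus widest among the longest, where the median of the other genes was near 0. That range is wide, and lengths were not matched within it. With the block, 23.1%, 12.0% and 19.2% of the short, middle and long genes passed as lower, against 14.2%, 9.90% and 6.95% of the others in the same ranges.

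A fit that removed the trend with length from each library gave a smaller shift. With these offsets and the block, the median over the 77 genes was -0.09, beside -0.01 over all genes tested, and 62 of 77 genes lay below 0. In that fit 10 genes passed as lower and 0 as higher, where 7.68% of all genes tested passed as lower and 5.76% as higher. The 10 included 7 of the 14 named above, namely Mrpl12, Mrpl3, Mrpl15, Mrpl57, Mrps9, Mrps14 and Mrpl50. Mrps6 was not among them. The correlation with length over the 77 genes became -0.43, so that after this removal the longer of these genes were the lower ones. The other 15 of the 77 genes lay above 0 there, among them, of the genes named here with a negative value before, Mrpl52, Mrps18c, Mrps21 and Mrps36 at 0.01, 0.02, 0.07 and 0.05.

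**Figure D5:**
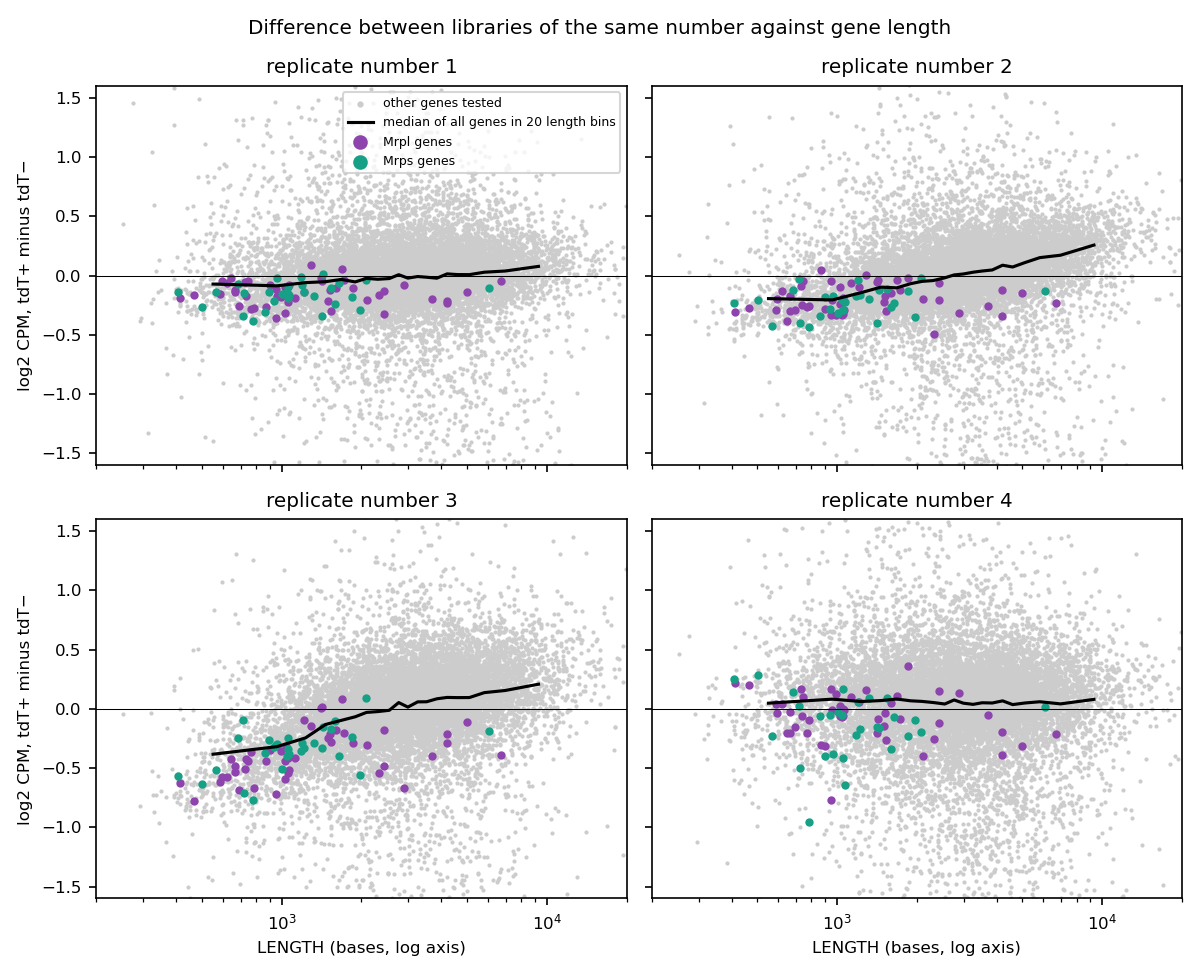
Difference in log2 CPM between the tdT-positive and the tdT-negative library of each number (vertical axis) against gene length in bases (log axis), with Mrpl genes in purple, Mrps genes in green, other genes tested in grey, and a line through the median of all genes in 20 length bins. The line rises with length in numbers 2 and 3 and is nearly flat in number 4, and the coloured points lie mostly below 0 in numbers 1, 2 and 3.

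Genes that assemble the mitochondrial ribosome or work with it had medians closer to 0 than its subunits. Length was not matched between these lists and the subunits, and its part in this contrast was not tested. The counts of calls in these lists, each with the block, were at most near the shares of all genes (7.81% lower and 8.03% higher). The few subunits with other symbols were the exception. Of 7 subunits that carry other symbols, 5 were tested, with a median log2 fold change of -0.24, and 1 passed as lower with the block. This was Gadd45gip1, a large-subunit protein, with 19.8 ± 1.62 CPM in tdT-positive libraries and 24.2 ± 3.64 CPM in tdT-negative ones (adjusted p = 0.0368 in the blocked fit). Chchd1, of the small subunit, averaged 21.8 ± 1.6 and 28.9 ± 7.46 CPM in the same order without overlap and did not pass (adjusted p = 0.0732). Aurkaip1, also of the small subunit, did not pass either (adjusted p = 0.127).

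Among 26 tested genes of mitoribosome assembly, the median was -0.02 and 1 passed as lower with the block, the RNA-binding factor Fastkd2 with 15 ± 1.42 CPM in tdT-positive libraries and 18.1 ± 2.14 CPM in tdT-negative ones (adjusted p = 0.0451). The 15 mitochondrial translation factors had a median of -0.17 and 0 passed with the block, the smallest adjusted p being 0.0619 for the recycling factor Mrrf. The 17 mitochondrial aminoacyl-tRNA synthetases had a median of -0.08 and 0 passed. One of them, the leucyl-tRNA synthetase Lars2, had 250, 350, 11000 and 765 CPM in tdT-positive replicates 1 to 4, against 260, 340, 352 and 390 CPM in tdT-negative ones. Its high value stands in the library with many Rn45s counts, and with the counts of both genes removed the blocked fit again called 14 of the 77 genes.

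Of 22 tested genes that express or maintain the mitochondrial genome, the median was -0.03 and 1 passed as lower with the block, a share below the 7.81% of all genes. This was Hsd17b10, a subunit of mitochondrial RNase P, with 23.9 ± 6.38 CPM in tdT-positive libraries and 33.9 ± 13.1 CPM in tdT-negative ones (adjusted p = 0.0171). Tfam, the packaging factor of mitochondrial DNA, averaged 18.4 ± 0.964 and 21.1 ± 1.27 CPM in the same order without overlap (adjusted p = 0.112 in the blocked fit). Of 10 tested regulators of mitochondrial biogenesis, 1 passed, and it was higher: Gabpb2, a partner of the ETS factor Gabpa, with 48.0 ± 2.05 CPM in tdT-positive libraries and 39.4 ± 2.50 CPM in tdT-negative ones (adjusted p = 0.0278). Gabpa, Nrf1 and Yy1 themselves averaged 40.2 ± 2.51, 21.9 ± 2.65 and 51.8 ± 2.12 CPM in tdT-positive libraries, against 41.2 ± 3.76, 20.9 ± 0.828 and 51.9 ± 3.15 CPM in tdT-negative ones, and Myc 8.97 ± 1.40 against 16.2 ± 11.7 CPM, all with overlapping groups.

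The cytosolic ribosome, the respiratory chain and the cell cycle had more negative medians than the mitochondrial ribosome. These sets were not matched for length, and the part of length in this order was not tested. With the block, 7.81% of all genes tested passed as lower and 8.03% as higher. The ribosomal and respiratory sets were taken by symbol, so like-named genes that are not subunits may be among them. The 83 tested genes with symbols of cytosolic ribosomal proteins had a median log2 fold change of -0.39. Of these, 49 passed as lower and 0 as higher with the block. The 77 tested genes with symbols of respiratory chain and ATP synthase subunits had a median of -0.29, with 27 lower and 0 higher. The 24 cell-cycle genes, which mark dividing cells, had a median of -0.37, with 5 lower and 0 higher. They summed to 258 to 305 CPM in tdT-positive libraries and 288 to 368 CPM in tdT-negative ones, and the part of dividing cells in the shift of the mitochondrial ribosome was not tested.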

How the data were processed

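Polyadenylated RNA of 8 samples was sequenced from stranded mRNA libraries, per the labels' protocols. The authors deposited whole-number counts per gene with a gene length in bases, another value per gene that is no measurement. STAR and mm10 are named in the submitters' processing notes. The counting tool, annotation and strand setting are not named in these sources, and exons of 33 of the 77 genes overlap another gene in GENCODE M21 (8 on the same strand, 28 on the opposite), so reads there could be split or shared.

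Groups and replicate numbers came from the sample titles. Whether libraries of 1 number came from the same mouse or the same day is not stated, and p-values reflect only the spread among these 8 samples. Between libraries of a group, the chi-square per degree of freedom of the counts was 54.0 to 759, so none was a repeat. Genes passing the default edgeR filter (minimum count 10, minimum total 15) were TMM-scaled (factors 0.865 to 1.15) and compared by the edgeR 4.0.16 quasi-likelihood test with group as the only term, Benjamini-Hochberg adjusted over all 12610 genes, threshold 0.05 (R 4.3.3). The deviations of same-numbered libraries from their group means correlated by 0.63, 0.28, 0.62 and 0.56, and each library matched its own number best, so values with the number as a block are given where they change a call. Log2 CPM used a prior count of 2, and RPKM is TMM-scaled CPM per kilobase of the given length. Floors of 3 counts cover counting error only, while the SD and SE values given include the spread between libraries. The scripts were tested on simulated data.

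Alternatives were DESeq2 1.42.0 size factors and Wald test, library totals, upper-quartile factors, limma 3.58.1 voom, other filters and thresholds, leaving out libraries or numbers, subunits placed by structure, and offsets from a loess of each library's log2 CPM deviations on log2 length. Several combinations with the block, the offsets without it, and the removal of Rn45s and Lars2 were added after seeing the data. The members, the 15 gene lists and the rules were chosen with earlier results of these data known. The rule for named genes takes those with the smallest p (8 lower and 8 higher at most, with the block), the largest changes, the highest and lowest levels and the extremes of length in each subunit, and 3 genes per list by p. Mrpl11, Mrpl50, Mrps14, Mrps16, Mrps18b, Mrps30, Gabpa, Nrf1, Yy1 and Slc5a3 are named outside it, after their values were seen. Proteins were not analysed here.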

Additional observations from a re-analysis of the deposited data

Results flagged for a closer look

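In 64 groups of 4 libraries (the named genes, the summed level and the subunit levels), 8 had a library farther from the other 3 than Dixon's 95% limit. Chance gives about 1 in 20 for a single group, but these groups share the same libraries and are not independent, so the count cannot be set against that rate. All 8 were high values of a replicate 3. In tdT-positive replicate 3, Mrpl19 had 24.1 CPM (21.2 to 21.6 in the other 3 tdT-positive libraries), Mrpl17 39.0 CPM (31.2 to 32.5) and Mrpl50 21.7 CPM (16.4 to 17.2). In tdT-negative replicate 3, Mrps33 had 3.21 CPM (2.47 to 2.55 in the other 3 tdT-negative libraries), Mrps14 35.3 CPM (26.6 to 28.0) and Mrps16 22.1 CPM (15.8 to 16.2). In the same library the summed level of the 77 genes was 2240 CPM (1790 to 1810) and the mean level of the Mrps genes 22.8 RPKM (18 to 18.3).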

How the results depend on the processing

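With the replicate number as a block, calls went to 1998 over all genes and 14 among the 77, from 3 and 0 without it. Calls over all genes and among the 77 were, without the block, 524 and 3 at an adjusted p under 0.1, 921 and 7 by the DESeq2 Wald test, and 216 over all genes without a filter. With the block they were 3182 and 29 at 0.1, 1695 and 10 with length offsets, 1418 and 11 with library totals, 2504 and 19 by DESeq2, 2144 and 15 by voom, 2338 and 12 without a filter, 1644 and 16 with at least 1 CPM in 4 libraries, and 2005 and 14 without Rn45s and Lars2. All calls among the 77 in these settings were lower in tdT positive. Leaving out 1 library gave 2 to 456 calls over all genes and 0 to 2 among the 77, with 225 over all genes without tdT-negative replicate 4, and leaving out a number, with the block, 347 to 2535 and 0 to 30 (1023, 347, 355 and 2535 over all genes without numbers 1 to 4). The median over the 77 genes lay between -0.26 and -0.13 without 1 library, between -0.23 and -0.14 without a number, and at -0.093 and -0.098 with length offsets with and without the block. The correlation with length was 0.05 to 0.36 without 1 library, -0.011 (without number 3) to 0.437 without a number, and -0.431 and -0.421 with length offsets with and without the block. The log2 ratio of the subunits differed by 0.082 with median RPKM.

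Among the genes named by the rule, signs turned for Mrpl10 with library totals (-0.025, with the block -0.024), for Mrpl4 with library totals (-0.045, with the block -0.051), upper-quartile factors (-0.008) and without number 4 (-0.005), and for Mrpl52 without tdT-negative replicate 3 (0.002, the others left out giving down to -0.468). Over all 77 genes, 7 lay above 0 in that setting, 15 with length offsets and the block, and 2 with all libraries. With length offsets and the block they turned for Mrpl52 (0.012), Mrps18c (0.020), Mrps21 (0.067) and Mrps36 (0.047), and without the block for Mrps18c (0.019), Mrps21 (0.064) and Mrps36 (0.039). The cause of these changes was not tested. Genes with few counts, such as Mrps36, are limited by depth.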
